A study of Drosophila melanogaster with 24 samples.

Results

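RNA levels in genital discs of Drosophila melanogaster were compared between females and males as one sex effect averaged over 3 stages of metamorphosis. All 24 arrays of the series entered the comparison. For each probe set the female minus male difference was taken within each stage, and the 3 differences were averaged with equal weight. A probe set is a group of array probes read as 1 value. The 6 groups, of 4 arrays each, were L3 females and L3 males, P6 females and P6 males, and P20 females and P20 males. L3 animals were wandering larvae, sexed by the size of the gonad. P6 animals were prepupae at about 6 h after puparium formation, and P20 animals were pupae at about 20 h. Every group carried esgGAL4.B, UAS-GFP.nls/CyO, so all arrays share a driver that marks imaginal discs with GFP and a balancer chromosome. The labels call the 4 arrays of a group biological replicates and give no batch.

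The genital disc is the larval primordium of the terminalia and the internal genital ducts. It forms from segment primordia that grow or stay small according to sex. Sex is set in each cell by the Sxl, tra and dsx splicing cascade, whose last member, the transcription factor dsx, is made in a female and a male form. Dosage compensation, through the MSL complex, raises transcription of the single X chromosome in males.

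The values are log2 RMA levels (robust multi-array average), and a difference of 1 log2 unit is 2-fold. They ran from 2.04 to 14.04 over the 13647 probe sets assigned to 1 gene, which cover 11982 genes. RMA levels give no detection call and no true 0, and levels of different probe sets are not set against each other. Correlations between replicates of a group lay between 0.966 and 0.994, and the median SD between replicates was highest at L3, at 0.245 log2 units in females and 0.247 in males. Genes that define the disc were read on every array. The posterior gene en read 9.23 to 10.22, the anterior gene ci 10.28 to 11.33, cad 9.65 to 11.37 and esg, whose driver marked the discs, 9.38 to 11.23. The hh receptor gene ptc read 6.27 to 7.3, and array medians were 5.93 to 6.38. Testis markers were higher on many male arrays. The mean level of 19 testis probe sets had a lowest, median and highest value of 3.96, 4.16 and 4.77 on the 12 female arrays, against 4.06, 5.71 and 7.19 on the 12 male arrays. Within its stage it was highest on L3 male replicate 2, P6 male replicate 3 and P20 male replicate 3. The sexes overlapped at L3 and not at P6 or P20. In dissected tissue, fewer cells of a type and less RNA per cell cannot be told apart.

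Averaged over the stages, 834 probe sets (6.11% of those tested) passed the test, from 799 genes. Of these, 268 (1.96%) were higher in females and 566 (4.15%) were higher in males. At 2-fold or more, 45 were higher in females and 140 were higher in males, together 1.36% of those tested. At 4-fold or more the counts were 8 and 28. The test was limma's moderated test at a Benjamini-Hochberg adjusted p under 0.05, two-sided, with 18 residual degrees of freedom. The median standard error of an average was 0.096 log2 units. The smallest difference that passed was 0.16 log2 units, and the median difference over all probe sets was 0.003. The counts above use no replicate block. With a replicate block within stage, 483 were higher in females and 848 in males.

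**Figure D1:**
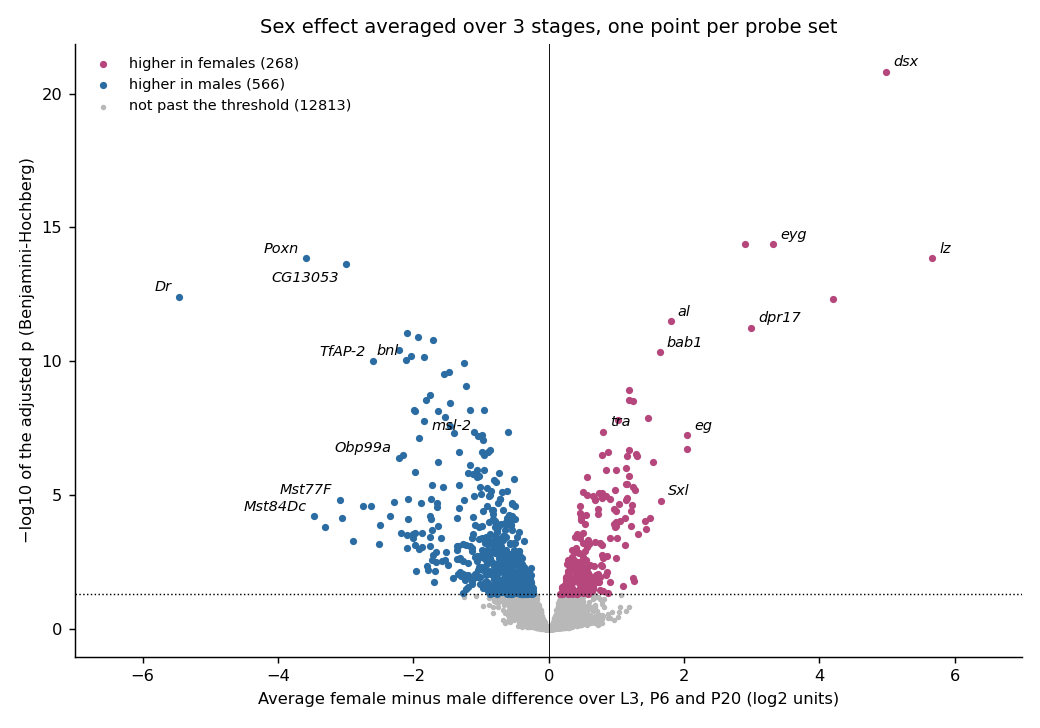
Average female minus male difference (x axis, log2 units) against the −log10 of its adjusted p (y axis), one point per probe set, with the dotted line at an adjusted p of 0.05. The 268 points on the right that passed the test were higher in females and the 566 on the left were higher in males, with lz, dsx, Dr and Poxn farthest out among the labelled genes.

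The largest average difference was that of lz, a Runt-domain transcription factor needed for the spermathecae and female accessory glands. At L3 it read 9.26, 9.48, 9.3 and 9.18 in females, against 4.78, 3.97, 5.15 and 4.43 in males. At P6 it read 9.77, 9.93, 9.74 and 9.63 in females, against 5.72, 5.66, 3.48 and 3.74 in males. At P20 it read 10.94, 10.75, 10.8 and 10.22 in females, against 3.52, 3.49, 3.66 and 3.43 in males. Females and males did not overlap at any stage. The average difference was 5.66 ± 0.21 (SE, 24 arrays), or 50.7-fold, with an adjusted p of 1.39e-14 in limma.

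On the male side the largest difference was that of Dr, a homeobox factor of the msh family known for a part in male terminalia. At L3 it read 5.84, 4.79, 5.22 and 3.73 in females, against 10.68, 11, 10.71 and 10.6 in males. At P6 it read 4.16, 3.32, 4.76 and 5.66 in females, against 10.95, 11.33, 10.87 and 11.03 in males. At P20 it read 7.08, 6.76, 5.26 and 6.37 in females, against 10.36, 10.42, 10.32 and 10.27 in males. The male arrays of a stage lay close together, and the female arrays varied more, with no overlap between the sexes. The average difference was -5.47 ± 0.24, or 44.2-fold lower in females, with an adjusted p of 3.8e-13 in limma.

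Poxn, a Pax factor of chemosensory bristles and of the male genitalia, read 3.26 to 5.42 on the female arrays, with a median of 4.18. On the male arrays it read 6.83 to 9.24, with a median of 7.4. The average difference was -3.59 ± 0.13, and its size was largest at P20, at -4.24.

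The sex determination genes check the labels of sex. Of their 18 probe sets, 3 were higher in females and 2 were higher in males, together 27.8%, against 6.11% of all probe sets. The first of 2 dsx probe sets read 10.9 to 11.25 on the 12 female arrays, against 5.14 to 6.68 on the 12 male arrays. Its average difference was 4.99 ± 0.08 and had the smallest adjusted p, 1.53e-21 in limma. The second dsx probe set went the other way, at 9.89 to 10.7 in females and 10.91 to 11.39 in males. Its average difference was -0.87 ± 0.08, with an adjusted p of 2e-07. Of the 1094 genes with several probe sets, dsx was the single one with probe sets past the test in both directions. The files do not say which dsx transcripts each probe set reads.

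Sxl, the RNA-binding switch of the female pathway, was higher in females in 1 of its 3 probe sets. That probe set read 5.93 to 9.04 in females and 4.64 to 7.29 in males, with an average difference of 1.66 ± 0.22. The sexes did not overlap at L3 and P20 and overlapped at P6. The other Sxl probe sets had averages of -0.12 and -0.17, with adjusted p of 0.689 and 0.182 in limma. The splicing factor tra read 10.49 to 11.27 in females and 9.75 to 10.57 in males, 0.8 ± 0.07 higher in females. The sexes did not overlap within any stage for tra. The zinc finger gene her, at -0.53, passed narrowly and lost its call when any of 15 single arrays was left out, with an adjusted p of up to 0.0713. The 7 probe sets of fru lay between 0.01 and 0.36, and none passed.

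Of 7 probe sets of dosage compensation genes, 2 were higher in males, none in females and 5 did not pass. Over all probe sets, 4.15% were higher in males. For msl-2, the subunit of the MSL complex made in males, L3 values were 8.58, 8.37, 8.44 and 8.02 in females, against 9.53, 9.37, 9.39 and 9.37 in males. At P6 they were 8.24, 8.42, 8.41 and 8.16 in females, against 9.54, 9.44, 9.42 and 9.12 in males. At P20 they were 9.08, 9.11, 9.18 and 8.5 in females, against 10.11, 10.09, 10.12 and 9.46 in males. The difference was close to 1 log2 unit at each stage, at -1.06, -1.07 and -0.98. The histone acetyltransferase gene mof was also lower in females, at -0.62 ± 0.08, without overlap at any stage. The RNA genes roX1 and roX2 are not analysed here, since the annotation gave neither a probe set of its own. The yolk protein gene Yp1, a dsx target of the adult fat body, had an average of -0.01, and Yp2 was 0.44 higher in females.

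**Figure D2:**
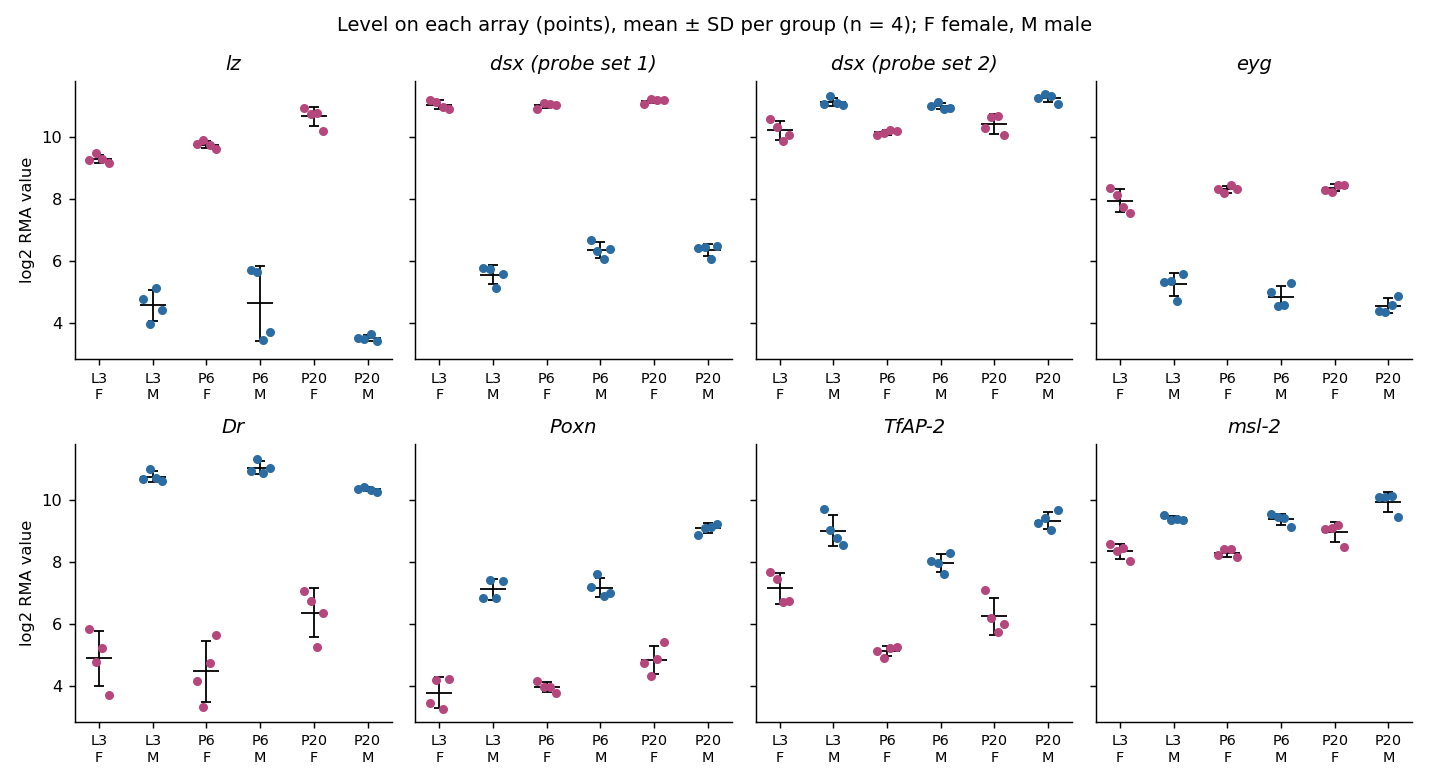
Log2 RMA level (y axis) on each array for lz, both dsx probe sets (1 higher in females, 2 higher in males), eyg, Dr, Poxn, TfAP-2 and msl-2, by stage with females (F) left of males (M). Points are arrays, and bars give the mean ± SD (n = 4), and in each of these 8 probe sets no female array overlapped a male array of its stage.

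Among the lists, the one named genital disc patterning factors had the largest share past the test. Of its 39 probe sets, 31 (79.5%) passed, against 6.11% of all probe sets, with 11 higher in females and 20 higher in males. Its median difference was -0.44, against 0.003 over all. The list was put together with earlier results of these data known, which may have shaped its membership, so its share is a description. Not every member is given here with a known part in this disc. None of its probe sets followed the testis markers.

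Among patterning factors higher in females, eyg, a Pax factor of eye and notum development, was second to lz. It read 7.56 to 8.47 in females, against 4.38 to 5.59 in males, with an average difference of 3.32 ± 0.11. The homeobox gene al, of the antenna and leg tip, read 9.58 to 10.74 in females and 7.48 to 9.3 in males, at 1.8 ± 0.09. Its difference varied little between stages, at 1.55, 2.11 and 1.74. The paired BTB factors bab1 and bab2, which act in abdomen, leg and ovary, averaged 1.64 ± 0.1 and 1.18 ± 0.08. The LIM-homeobox gene Awh averaged 1.19 in 1 probe set and 0.04 in the other, which did not pass. Lim1, another LIM-homeobox gene, passed in both probe sets, at 0.58 and 0.34, with L3 differences of only 0.07 in each.

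A further 3 factors owed most of their female average to 1 stage. The zinc finger gene eg, known for serotonin neuron fate, averaged 2.05 ± 0.18 from differences of 0.4 at L3, 0.88 at P6 and 4.86 at P20. At P20 it read 8.32, 8.46, 9 and 8.89 in females, against 3.89, 3.2, 4.57 and 3.55 in males. The BTB gene lov likewise differed by 0.37, 0.27 and 3.86. The homeobox gene unpg instead had its largest difference, 2.8, at P6, beside 0.35 at L3 and 0.58 at P20.

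Among patterning factors higher in males, slp2, ara, caup, eya, salm and salr, and ap passed at every stage. The forkhead gene slp2 read 2.89 to 4.85 in females and 4.5 to 6.97 in males, at -1.97 ± 0.15. The Iroquois homeobox genes ara and caup, neighbours on arm 3L, averaged -1.97 ± 0.21 and -1.76 ± 0.13. For ara the sexes overlapped at L3, where females read 6.98 to 8.87 and males 8.66 to 10.41. The eye determination gene eya averaged -1.71 ± 0.09, and its partner so averaged -0.7 ± 0.13. The spalt zinc finger genes salm and salr, another pair of neighbours, averaged -1.46 ± 0.11 and -0.97 ± 0.09. The LIM-homeobox gene ap passed on the average in both probe sets, at -1.54 and -1. Only the first passed at every stage. The second differed by -0.8 at P20, with an adjusted p of 0.0535 in limma.

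Smaller male-side averages came from appendage and segment genes. The leg gene Dll passed in 2 of 3 probe sets, at -0.79 and -0.57, and read -0.14 in the third. The selector genes en and inv averaged -0.52 ± 0.06 and -0.44 ± 0.08. The T-box gene bi averaged -0.55. The segmentation gene gsb averaged -0.69, with -1.67 at P20 and -0.17 and -0.23 before. The LIM-homeobox gene tup averaged -0.61, and its call was lost when any of 16 single arrays was left out, with an adjusted p of up to 0.0794 in limma. The homeobox genes mirr, cad and ct did not pass, at -0.34 to 0.03 over 6 probe sets.

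The retinal and leg gene dac, known to be expressed in different domains of female and male discs, showed how an average can cover opposite signs. At P6 it read 7.75, 7.67, 7.84 and 8.04 in females, against 9.55, 9.46, 9.45 and 9.7 in males. At P20 it read 10.71, 10.05, 9.99 and 9.96 in females, against 9.45, 9.89, 9.71 and 9.74 in males. The sexes were apart at both stages, in opposite directions. The P20 difference did not pass, with an adjusted p of 0.288 in limma. The within-stage differences were -0.34, -1.71 and 0.48, the average -0.53 ± 0.1, and the interaction adjusted p 3.34e-05. Without P6 the average was 0.07.

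Genes outside the patterning list completed the largest differences. The immunoglobulin gene dpr17 averaged 2.99 ± 0.15 higher in females, at 3.43, 1.4 and 4.15 by stage. CG4267, named here by its number, was higher in females in both probe sets, at 4.2 ± 0.19 and 2.9 ± 0.1. CG31816 averaged 2.05, without passing at P6 (0.81), and CG13044 averaged 1.44, without passing at L3 (0.65). On the male side TfAP-2, the AP-2 factor of leg and mouthpart development, averaged -2.6 ± 0.16, and its second probe set, at 0.11, did not pass. The odorant-binding protein gene Obp99a read 5.19 to 8.24 in females and 6.06 to 11.8 in males, at -2.22 ± 0.22.

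**Figure D3:**
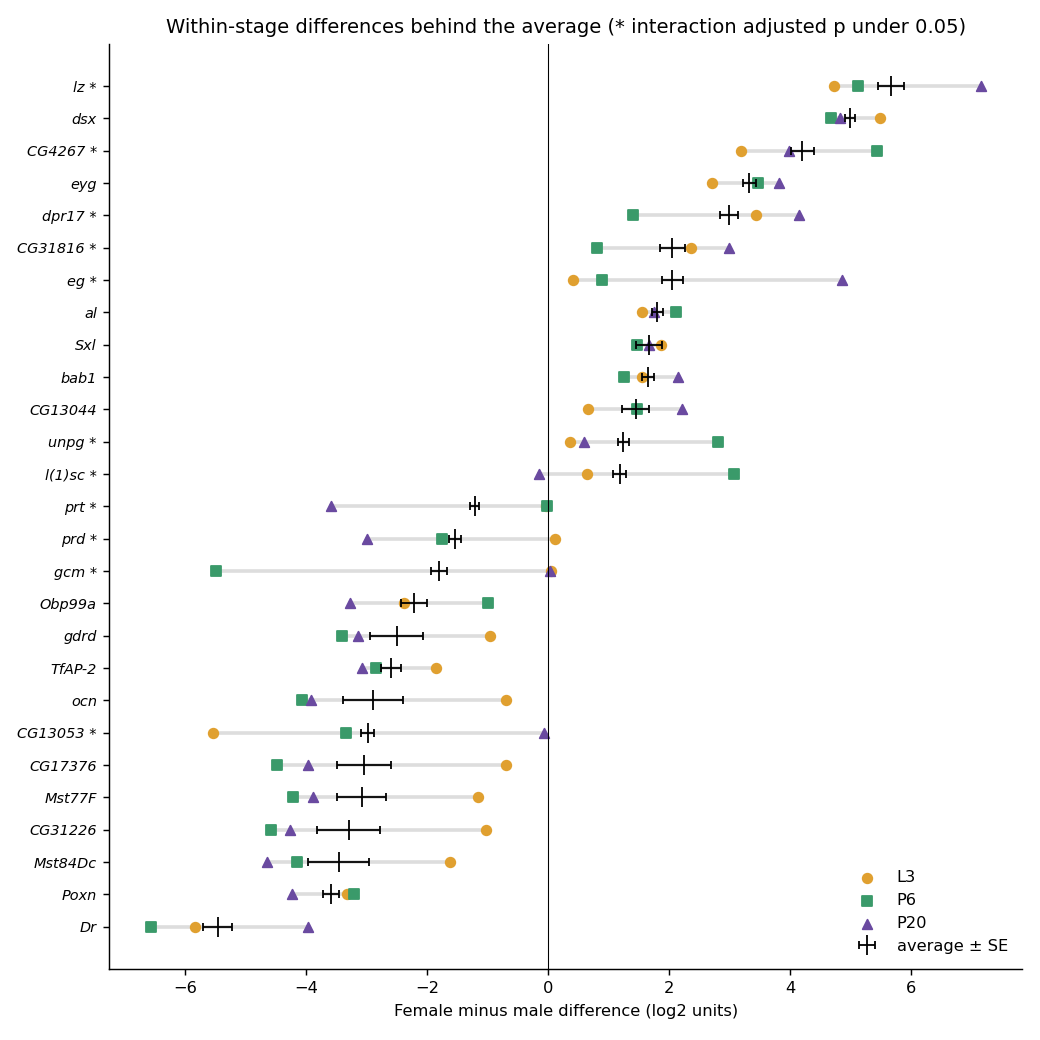
Female minus male differences at L3 (circles), P6 (squares) and P20 (triangles) and their average ± SE (bars), in log2 units, for the largest named and CG genes in each direction and the 5 genes with the smallest interaction p. For dsx, al and Sxl the 3 symbols lie close together, whereas gcm, prt and eg owe their average to 1 stage.

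How the average relates to its stages was counted next. Of the 834 probe sets, 714 had the same sign at all 3 stages, and 120 had the opposite sign at 1 stage or more. Over all probe sets, 39.2% had 1 sign at all stages. The 834 were selected on the average of the same 3 differences, which favours 1 sign. Their agreement between stages is therefore no separate support. Of the 834, 38 passed at every stage, 150 at 2 stages, 386 at 1 stage and 260 at none. Single stages gave 118 calls at L3 (0.865%), 607 at P6 (4.45%) and 307 at P20 (2.25%). A further 229 probe sets passed at 1 stage or more but not on the average. In 62 probe sets (0.454%) the 4 female and 4 male arrays did not overlap at any of the 3 stages, with 24 higher in females and 38 higher in males.

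Among the 38 that passed at every stage, the members outside the lists were picked out after their values were seen. Ctr1B, a copper transporter, averaged -2.21 ± 0.13 and read 6.92 to 8.13 in females and 9.02 to 10.17 in males. FucTC, a fucosyltransferase, averaged -2.03, and Nep1, a neprilysin peptidase, -1.46. The G protein subunit Gbeta5 averaged -0.98, the homeobox gene C15 -0.69 and the sulfatase Sulf1 -0.54. Jhbp2 changed sign among them. It read 5.32 to 6.24 in L3 females and 6.27 to 7.93 in L3 males, while at P20 it read 11.83 to 11.96 in females and 9.3 to 9.9 in males. Its differences were -1.15, 0.87 and 2.3, so its average of 0.67 describes no single stage.

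The 260 probe sets that passed on the average and at no stage, 120 higher in females and 140 in males, had a median size of 0.41 log2 units. Of these, 255 had 1 sign at all stages, which this selection favours. The copper chaperone gene Cox17 read 10.02 to 10.74 in females and 9.61 to 10.43 in males, at 0.29 ± 0.06. Its 4 female arrays lay above the 4 male arrays at each stage, yet its smallest adjusted p at a stage was 0.0588. The cell cycle inhibitor rux averaged 0.4, htk 0.37 and Ect3 1. Higher in males were ssx, a relative of Sxl, at -0.42, the Notch regulator spdo at -0.56, and the zinc finger gene elB at -0.52. The testis gene Mst84Db, at -1.49, was also among them and correlated at 0.9 with the testis markers. Among these genes, elB and htk passed in 1 probe set only, of 3 and 2.

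The sex by stage interaction, limma's moderated F test with 2 degrees of freedom, passed for 213 probe sets (1.56%), of which 150 also passed on the average. The glial determination factor gcm had its difference at P6, where it read 2.85, 2.69, 2.95 and 3.27 in females, against 8.48, 8.56, 8.23 and 8.45 in males. The P6 difference was -5.49, while L3 and P20 gave 0.04 and 0.02. The average of -1.81 ± 0.13 rests on that stage, and without P6 it was 0.03. Its neighbour gcm2 followed at smaller size, at 0.28, -1.45 and 0.12.

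The transporter gene prt differed at P20, where it read 2.63, 2.73, 2.93 and 3.08 in females, against 6.25, 6.26, 6.27 and 6.99 in males. At L3 and P6 its differences were -0.04 and -0.02. The Pax gene prd, needed for male accessory glands, differed by 0.11, -1.76 and -3. The proneural gene l(1)sc went the other way, at 0.64, 3.06 and -0.15. For CG13053 the difference shrank in size over the stages, at -5.55, -3.34 and -0.08. At P20 the CG13053 probe set read 13.09 to 13.4 in females and 13.29 to 13.34 in males. These levels are near the highest of the data, 14.04, and whether that limits the P20 difference was not tested.

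FGF signalling, through which male disc cells are known to recruit mesodermal cells, had 6 of 9 probe sets past the test (66.7%, against 6.11% of all). The ligand gene bnl read 4.01 to 5.39 in females and 5.74 to 7.91 in males in one of its 3 probe sets. It averaged -2.09 ± 0.11 there and -2.11 ± 0.13 in a second probe set, and the third, at -0.18, did not pass. The difference was largest in size at L3, at -3.18, against -2.07 at P6 and -1.03 at P20, with an interaction adjusted p of 0.000127. Its receptor gene btl read 4.45, 5.1, 4.6 and 4.92 in L3 females, against 6.48, 6.56, 6.8 and 6.2 in L3 males. The btl differences were -1.74, -1.17 and 0.34, and the average was -0.86 ± 0.1. Without L3 the btl average was -0.42, with an adjusted p of 0.05 in limma. The mesodermal receptor gene htl averaged 0.46 and one of its ligand genes, ths, 0.42, both higher in females. The inhibitor gene sty passed in 1 of 2 probe sets, at -0.39.

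Of the other signalling lists, 18.8% of Hedgehog, Wnt and Dpp probe sets passed, 23.1% of Notch, 12.5% of EGF receptor and 12.5% of JNK, against 6.11% of all probe sets. These shares rest on 1 to 3 probe sets a list. Of 16 Hedgehog, Wnt and Dpp probe sets, Wnt6 was higher in females, at 0.73, with 1.54 at P6. The BMP ligand gene dpp, at -0.39, and the inhibitory Smad gene Dad, at -0.27, were higher in males, while hh, ptc and ci did not pass, at -0.16 to -0.06. Of 13 Notch probe sets, 3 were higher in males, namely the repressor E(spl)m5-HLH at -1.56, E(spl)m4-BFM at -0.91 and the ligase gene neur at -0.28. Of 8 EGF receptor probe sets, the repressor gene aop passed, at -0.28. In the JNK list, scaf passed at 0.29 and egr at -0.44, of 16.

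Sensory organ genes had 2 of 21 probe sets higher in females and 5 higher in males, together 33.3%, against 6.11% of all. The proneural genes ato and l(1)sc were higher in females, at 1.54 ± 0.16 and 1.18 ± 0.11. At P6 ato read 6.36, 6.56, 6.77 and 6.65 in females, against 3.59, 3.38, 3.55 and 3.68 in males. Higher in males were Poxn, the PRDM gene ham, sens, ase and neur. For ham the P6 values were 3.63, 3.45, 3.5 and 3.34 in females, against 7.89, 7.05, 8.54 and 7.94 in males. Its average was -2.15 ± 0.21, and its second probe set, at -0.14, did not pass. The proneural genes ac, sc and amos did not pass, at -0.33, -0.25 and 0.08.

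In the tracheal list the nuclear receptor genes kni and knrl were higher in females, at 1.31 ± 0.13 and 0.98 ± 0.12, and btl, apt and sano were higher in males. Together 31.2% of its 16 probe sets passed, against 6.11% of all. Of 20 muscle probe sets 2 passed, both higher in females, nau, the MyoD relative, at 1.46, and rols at 0.47. Their share was 10%, against 1.96% of all probe sets higher in females and 6.11% in either direction. The nau difference was 0.21, 1.32 and 2.86 by stage, with an interaction adjusted p of 1.98e-05. The rols call was lost when any of 17 single arrays was left out, with an adjusted p of up to 0.0747. The mean level of the muscle list was 7.18 to 7.77 in L3 females and 6.83 to 7.52 in L3 males. It was 6.73 to 7.01 in females and 6.49 to 6.72 in males at P6, and 7.04 to 7.21 in females and 6.92 to 7.04 in males at P20. The sexes overlapped at L3, and females lay above males at P6 and P20, by little at P20. Both nau and rols are among the 20 probe sets, so the list mean is not separate from their results. What the other probe sets add to the shift was not tested.

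Cuticle protein genes had 8 of 107 probe sets higher in females and 9 higher in males, together 15.9%, against 6.11% of all probe sets. The pupal cuticle gene Pcp averaged -1.92, with -3.88 at P6. At P20, Cpr62Bc was 3.28 higher in females, while Cpr64Aa and Cpr92F were lower in females, at -2.57 and -2.11. Without the male array of highest testis marker level at each stage, 4 cuticle probe sets were higher in females and 7 higher in males. In the apical matrix list of 15 probe sets, the zona pellucida genes mey and dyl were higher in males, at -1.06 and -1.12, and qsm and tyn were higher in females, at 0.61 and 0.9. Together they made up 26.7% of that list, against 6.11% of all probe sets.

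Of 93 probe sets of the dpr, DIP, beat and side cell recognition families, 5 were higher in females and none in males. The DIP and dpr proteins are cell-surface partners in neuronal wiring, and beat proteins bind side proteins. After dpr17 came beat-IIa at 0.97, beat-IIb at 0.79, dpr1 at 0.46 in 1 of 3 probe sets, and beat-VI at 0.27. The share, 5.38%, compares with the 1.96% of all probe sets that were higher in females. In either direction, 6.11% of all probe sets passed. Odorant-binding proteins had 2 of 50 higher in males, Obp99a and Obp49a. That share, 4%, is near the 4.15% of all probe sets that were higher in males. Obp49a averaged -2.08 ± 0.27. Its L3 difference was -0.14, against -3.97 at P6 and -2.14 at P20.

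**Figure D4:**
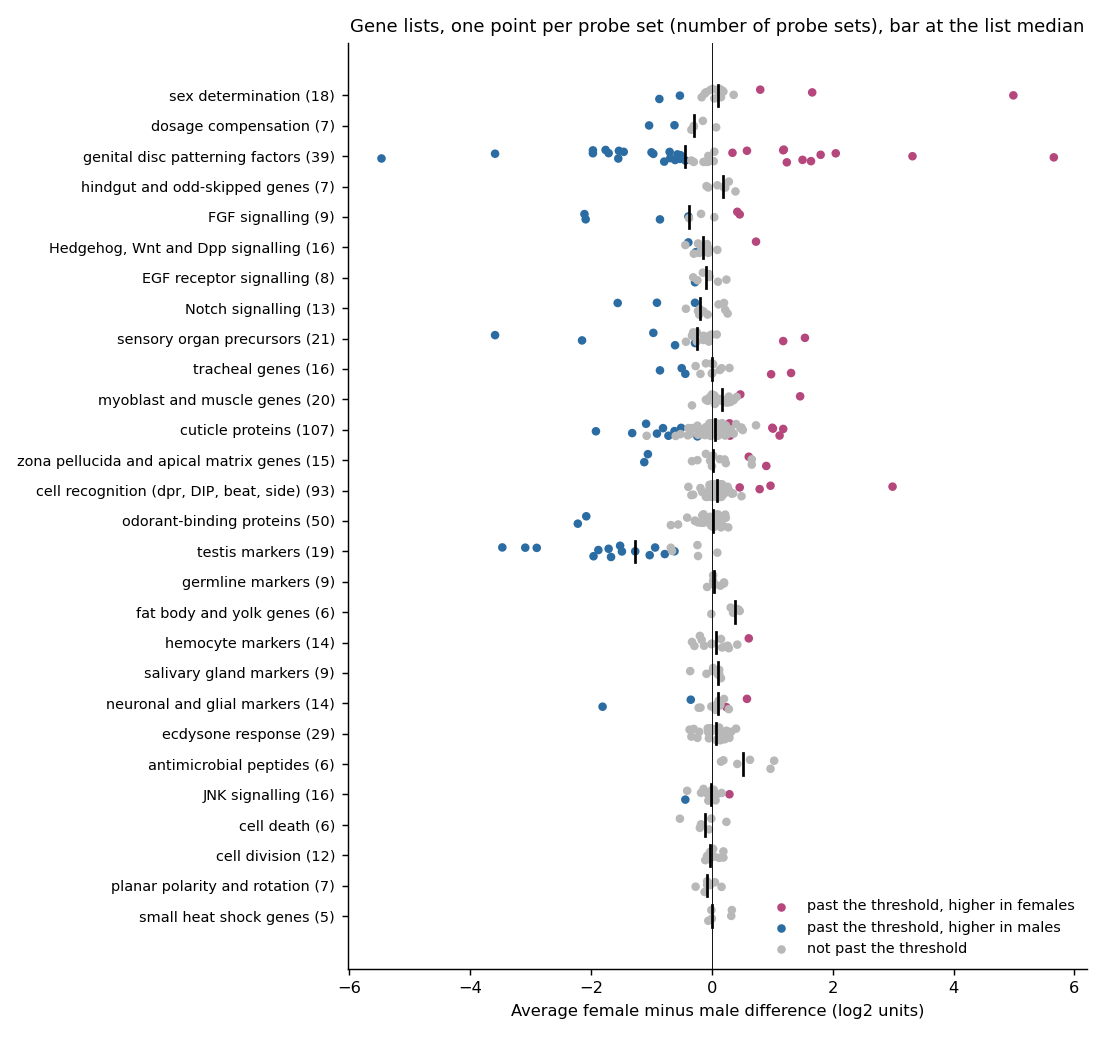
Average female minus male difference (x axis, log2 units) for every probe set of the 28 gene lists, with the number of probe sets in brackets and a bar at each list's median. The patterning list spreads from -5.47 to 5.66 and the testis list lies mostly left of 0, with a median of -1.27, whereas the ecdysone, cell division and planar polarity lists hold no call.

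Testis genes were the other large male-side group. Of 19 testis marker probe sets 14 (73.7%) were higher in males, against 4.15% of all probe sets. None was higher in females, and the list median was -1.27. The sperm chromatin gene Mst77F read 5.11, 7.69, 3.99 and 4.86 in L3 males, 7.85, 9.14, 10.21 and 6.38 in P6 males, and 7.69, 7.59, 8.74 and 6.72 in P20 males. Its female arrays read 3.33 to 5.4. The SD between male replicates was 1.59 at L3, 1.65 at P6 and 0.82 at P20, against 0.18, 0.2 and 0.07 for Dr. Averages were -3.47 ± 0.5 for Mst84Dc, -3.09 ± 0.4 for Mst77F, -2.9 ± 0.5 for ocn and -2.51 ± 0.44 for gdrd, a gene of sperm development. None of these genes passed at L3, with differences of -1.63, -1.16, -0.7 and -0.96 in that order. In L3 males gdrd read 3.13, 7.62, 2.91 and 3.02.

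Many male-higher probe sets moved with these markers from array to array. Of the 566, 182 (32.2%) were markers or correlated at 0.7 or more with the markers' mean over the 12 male arrays, after removing group means, against 4.04% of all probe sets. At 2-fold or more, 80 of the 140 did so and 60 did not. Of the 268 higher in females 1 did so, CG31816, at a correlation of 0.89. CG31226 and CG17376, the largest CG averages in males at -3.3 and -3.05, correlated at 0.98 and 0.97, and neither passed at L3. Without these probe sets, 234 were higher in females and 346 in males, and 59 were at least 2-fold higher in males. Without the male array of highest marker level at each stage the counts were 187 and 441. Whether testis tissue accounts for these differences was not tested. Germline markers such as vas and bam had a list mean of 4.5 to 4.98 in females and 4.37 to 4.9 in males, and 0 of 9 probe sets passed. At L3 the female germline means, 4.75 to 4.98, lay above the male ones, 4.65 to 4.75.

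Over all stages, the ranges of the other marker lists overlapped between the sexes. Within stages, some did not. At P6 the neuronal and glial list had means of 5.4 to 5.6 in females and 5.68 to 5.99 in males. It holds gcm and gcm2, both higher in males at P6, and its mean without them was not taken. At P20 the salivary gland list had means of 3.77 to 4.57 in females and 3.57 to 3.73 in males. The hemocyte list's mean read 5.97 to 8.97 in females and 5.88 to 9.1 in males, with vkg, a collagen IV gene, past the test at 0.61. The fat body list's mean read 7.12 to 8.45 in females and 6.52 to 8.33 in males. In the neuronal and glial list, futsch was higher in females in 2 of 3 probe sets, at 0.24 and 0.58, and gcm and gcm2 were higher in males, at -1.81 and -0.35. The genes elav, nSyb and repo did not pass. Of that list's 14 probe sets 28.6% passed, against 6.11% of all. The salivary gland, ecdysone response, antimicrobial peptide, cell death, cell division, planar polarity, hindgut and small heat shock lists held no call in either direction.

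Calls were spread unevenly over the chromosome arms. Of 2188 X-linked probe sets, 100 (4.57%) were higher in females and 67 (3.06%) were higher in males, against 167 (1.47%) and 493 (4.34%) of the 11349 on the autosomal arms, chromosome 4 included. X-linked probe sets were 16% of those tested and made up 37.3% of the female-higher calls and 11.8% of the male-higher calls. With a replicate block within stage, 200 X-linked probe sets were higher in females and 108 in males. The X median difference was 0.053, with 0.053 at L3, 0.051 at P6 and 0.062 at P20, and 65.9% of X-linked averages were above 0, against 48.1% on those autosomal arms. Most of the female-higher X differences were small, with a median of 0.42 log2 units, and 57 of the 100 passed at no single stage. The X median minus the autosome median of each array was 0.391 to 0.555 in females, with a median of 0.518. In males it was 0.3 to 0.52, with a median of 0.4. The sexes overlapped at L3 and P20, while at P6 females read 0.505 to 0.555 and males 0.305 to 0.441, without overlap. Chromosome 4, with 82 probe sets, had a median of -0.066. On it 0 were higher in females and 5 (6.1%) higher in males, against 4.15% of all probe sets.

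**Figure D5:**
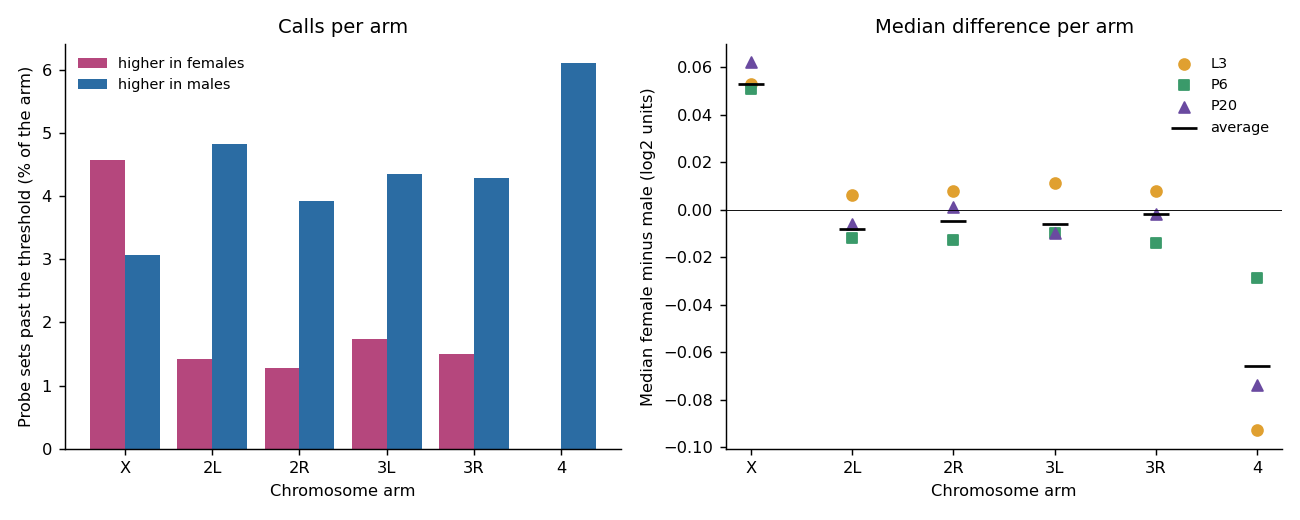
Left, percent of each arm's probe sets past the average test, higher in females (left bars) or in males (right bars). Right, the median female minus male difference per arm in log2 units, by stage and averaged, which is 0.053 on the X, between -0.008 and -0.002 on the other large arms and -0.066 on chromosome 4.

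Single large X-linked differences ran both ways. Beside lz and Sxl on the female side, the X-linked genes FucTC, CG4766 and Nep1 were higher in males, at -2.03, -1.94 and -1.46. At 2-fold or more, 9 of the 2188 X-linked probe sets were higher in females and 13 higher in males. On the autosomal arms the counts were 36 and 125, of 11349 probe sets.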

How the data were processed

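RNA of dissected genital discs was hybridised by the authors to 1 array per sample. The deposited values are on a log2 scale and were made with RMA, per the submitters' processing notes; version, settings and genome build are not given in the sources used here. Without background levels, signal over background is unknown, and RMA understates folds of dim probe sets. The number of arrays limits precision.

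Of 18952 probe sets, 183 controls, 402 with several genes and 4720 with none were left out of the comparisons. Symbols came from the platform annotation, and chromosome arms from a Release 6 gene table, matched for 13544 of 13647 probe sets. A mean for each of the 6 groups was fitted with limma 3.58.1 in R 4.3.3 (lmFit, eBayes), and p was adjusted over 13647 probe sets. All adjusted p come from these fits.

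Named were the 8 largest named genes and 3 largest CG genes in each direction with 1 sign at every stage, the 5 named genes of smallest interaction p, 4 in each direction past no stage, a panel, and up to 4 members per list with any member needed to describe it. The panel was Sxl, tra, dsx, msl-2, roX1, roX2, lz, Dr, Poxn, bnl, btl, bab1, bab2 and Yp1. The members, the 28 lists and the tests were chosen with earlier results of these data known. Lists share members.

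In simulated data for the average, changes of 0.25, 0.5, 1 and 2 log2 units were recovered for 26%, 80%, 92% and 100% of 50 changed probe sets each, among 13647. For the interaction, with changes at P6 alone, the shares were 0%, 10%, 56% and 92%. The alternatives were median centring, a variance trend with robust eBayes, an additive model, array weights, dropping dim probe sets, 1 probe set per gene, replicate blocks, and leaving out arrays, stages or probe sets.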

Additional observations from a re-analysis of the deposited data

Results flagged for a closer look

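In 36 named probe sets the female minus male difference varied between the stages by limma's interaction test, at the adjusted p given here. Among genes higher in females on the average, it was 0.0197 for lz, 0.000234 for dpr17, 1.86e-06 for eg, 0.0399 for CG31816, and 0.0247 and 0.049 for the CG4267 probe sets. The proneural genes l(1)sc and ato had 5.12e-07 and 0.00041. The homeobox genes unpg and Awh had 5.12e-07 and 0.0396, and the BTB gene lov had 0.000221. Wnt6 had 0.00193, the myogenic gene nau 1.98e-05, Cpr62Bc 1.06e-06, beat-IIb 0.0124 and beat-IIa 0.00293. Jhbp2, with a change of sign, had 7.83e-06.

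Among genes higher in males on the average, it was 9.59e-11 for CG13053, for prt and for gcm, 5.2e-05 for gcm2 and 2.48e-07 for prd. The bnl probe sets had 0.000103 and 0.000127 and btl had 6.23e-05. E(spl)m4-BFM had 0.0408, ham 0.000296 and sano 0.00207. The cuticle genes Pcp, Cpr92F and Cpr64Aa had 0.000118, 6.89e-06 and 0.00969, and Obp49a had 0.00503. The patterning genes eya, dac and gsb had 0.0145, 3.34e-05 and 0.0383, and CG4766 had 0.00311.

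Single arrays lay far from the other 3 of their group in 42 of 684 group readings of the named probe sets, and chance flags about 1 in 20. L3 male replicate 2, with the highest marker level of its group, stood high for Mst84Da (7), gdrd (7.62), Obp99a (10.39) and CG31816 (4.63). P6 female replicate 4 stood high for Mst84Da (4.84), ocn (5.06), gdrd (4.41) and CG17376 (5.4). L3 female replicate 4 stood high for ocn (5.19) and CG31226 (7.03).

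Other L3 arrays standing apart were female replicate 1, low for al (10.37) and Ect3 (5.93) and high for qsm (11.94), and female replicate 3, low for Lim1 (9.86). L3 male replicate 1 was high for msl-2 (9.53) and tyn (8.41) and low for futsch (4.91). At P6, female replicate 3 was high for al (10.18) and htl (9.93) and low for her (6.75), and female replicate 4 was low for CG11590 (12.16) and Nep1 (5.2). P6 male replicate 3 was low for Cox17 (10.21) and caup (7.88), male replicate 2 low for en (9.83) and male replicate 4 high for CG4267 (3.73).

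At P20, female replicate 4 was high for CG4267 (9.19) and low for msl-2 (8.5). Female replicate 3 was low for unpg (3.78), so (5.96) and CG15005 (4.21). Female replicate 1 was low for Pcp (8.4) and high for dac (10.71) and CG4766 (8.95). P20 male replicate 4 was high for prt (6.99) and low for Sxl (11.76), msl-2 (9.46) and neur (10.21). Male replicate 3 was high for lov (4.62) and FucTC (8.97) and low for tup (8.81), and male replicate 1 was high for Obp99a (11.8).

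Probe sets outside the comparisons also held differences. Of the 4720 with no gene, 85 passed the average test, with 36 differences above 0 (females higher) and 49 below 0. Of the 402 with several genes, 15 passed, with 3 above 0 and 12 below 0.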

How the results depend on the processing

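Leaving out single arrays gave 219 to 293 probe sets higher in females and 478 to 646 higher in males, 43 to 49 and 127 to 160 at 2-fold or more, and 172 to 269 for the interaction. X-linked counts ran from 82 to 112 and from 55 to 78, and calls past no single stage from 188 to 270. Among named probe sets, rols lost its call without any of 17 arrays, tup of 16, her of 15, and 1 futsch probe set of 2, P6 female replicate 1 and P20 female replicate 2, where its adjusted p was up to 0.051. Restricting to brighter probe sets (mean at or above the median) gave 145 and 231 calls, 29 and 40 at 2-fold or more, 122 for the interaction, 130 past no stage, and 63 and 35 on the X, with fewer probe sets tested. Without P6 the calls were 101 and 198, with 88 at 2-fold or more in males and 36 and 31 on the X. Without P20 they were 116 and 214, with 89 and with 35 and 28. Without L3, which removes as many arrays, the calls were 301 and 666, with 221 at 2-fold or more in males. All of these settings rest on fewer arrays. Without P6 the averages of gcm, gcm2 and dac changed sign, to 0.03, 0.2 and 0.07, and without P20 that of Jhbp2 to -0.14, none past the threshold. A further 30 named probe sets lost their call without P6, 28 without P20 and 6 without L3, with the direction kept and fewer arrays. In the additive model gcm, gcm2, dac and Jhbp2 did not pass. Array weights per stage left 158 calls past no single stage, and the cause was not tested.

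Same-numbered female and male arrays of a stage correlated at 0.02 to 0.69, over 0.1 in 9 of 12 pairs. Of 24 arrays, 19 correlated best with their own number. The labels do not give the numbers as pairs, and the reason was not tested. With a replicate block within stage, 483 were higher in females and 848 in males, 323 passed the interaction, 468 passed at no single stage, and 200 and 108 were X-linked. A block over stages gave 274 and 592, and her and tup did not pass. Chosen after seeing the data, leaving out probe sets that follow the testis markers gave 346 higher in males, 59 at 2-fold or more. Leaving out the male array of highest marker level at each stage left 173 calls past no single stage, and her, Dad, neur, rols, tyn, Yp2, futsch and tup did not pass. The EGF receptor and fat body lists then held 0 calls, and the FGF, muscle and apical matrix lists 1 female-higher call each. Median centring gave 282 and 521, and changed no named call. Dim probe sets limit the sizes, since signal over background is unknown.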
